A study of Mus musculus with 2 samples.

Results

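Mir140 and Mir455 are miRNA genes known from cartilage, and their levels were read in limbs of mouse embryos. They were taken by name, from the Ensembl identifiers that map to Mir140 (inside Wwp2) and Mir455 (inside Col27a1), and make up 2 of the 1973 miRNA genes counted. The rule of choice uses names and no measured value, but it was set with earlier results of these data known. The RNA came from the limb of healthy B6NCrl mice at embryonic day 13.5, with male and female embryos pooled, and the labels name no treatment, transgene or mutation. The 2 biological replicates form 1 group and carry the same donor label, and how many embryos went into each is not given in the sources used here. With no second group, every comparison below is between genes, or between the libraries. Comparisons between genes are of read counts, and how evenly reads stand for molecules of different sequences was not tested.

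A miRNA gene is transcribed as a hairpin that is cut to a duplex of 2 arms of about 22 bases, and an arm loaded into an Argonaute protein pairs through its seed, bases 2 to 8, with sites in target mRNAs. In the developing limb both genes are known as part of the chondrocyte programme governed by the transcription factor SOX9. Loss of Mir140 in mice is known to shorten the long bones and to disturb the growth plate, and Mir455 is known for a role in keeping articular cartilage intact. Wwp2 encodes a ubiquitin ligase of the NEDD4 family, and Col27a1 encodes a fibrillar collagen of cartilage.

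The mature arms held in the RefSeq table (GRCm38.p6) are shown here because the seed sets what each miRNA can pair with, and the counts, made per hairpin, cannot tell arms apart. The other arm of Mir140, miR-140-5p, is counted in the same gene. Sequences run 5′ to 3′ with the seed in capitals.
miR-140-3p: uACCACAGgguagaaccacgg
miR-455-5p: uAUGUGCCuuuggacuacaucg
miR-455-3p: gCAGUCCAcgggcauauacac
The 3 seeds all differ, so by these arms the genes are not members of 1 seed family. The seed of miR-140-5p, which the table lacks, was not compared. miR-140-3p lies at chr8:107551288-107551308, on the plus strand, and fills bases 45 to 65 of a hairpin of 70. miR-455-5p (chr4:63256867-63256888) and miR-455-3p (chr4:63256904-63256924), also on the plus strand, fill bases 17 to 38 and 54 to 74 of a hairpin of 82. Of these arms, miR-140-3p and miR-455-3p have the same length, 21 bases, and the same GC content, 57.1%, against 22 bases and 45.5% for miR-455-5p. The longest run that miR-140-3p shares with a Mir455 arm is 6 bases, CCACGG, starting at base 16 of miR-140-3p and at base 6 of miR-455-3p, so it lies outside the seed of miR-140-3p and overlaps the seed of miR-455-3p by its first 3 bases.

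The 3′ side of the Mir140 hairpin (bases 36 to 70, chr8:107551279-107551313, plus strand) is given with the miR-140-3p arm in capitals, to show the arm between loop and hairpin end.
Mir140 hairpin, 3′ side: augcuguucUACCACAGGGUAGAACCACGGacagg
The arm is followed by 5 bases of hairpin.

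Few other mature sequences in the RefSeq table carry these seeds. The table is not complete, as it lacks miR-140-5p. Among 1738 mature sequences in the table, 68.0% have a seed found in no other entry. The seed of miR-455-3p belongs to that share. The seed of miR-140-3p is found in 1 other, and so is that of miR-455-5p.
miR-497b: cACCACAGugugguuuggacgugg
miR-5129-3p: aAUGUGCCugugcaucucuucc
Outside the seed, miR-497b matches miR-140-3p at 4 of 14 positions compared from the 5′ end, and miR-5129-3p matches miR-455-5p at 7 of 15. Mir497b had 1 sense count in replicate 1 and 2 in replicate 2, both within the limit of 3 counts that is allowed for a count of 0. On the opposite strand at that place, where Mir497 is annotated, there were 3412 and 3612 counts, and Mir497 has no entry of its own in the counts. Mir5129, inside Zeb2 on the same strand, had 0 sense counts in each library, and at these depths a count of 0 leaves room for a level of 0.506 CPM (replicate 1) or 0.4997 CPM (replicate 2), where CPM is counts scaled to 1000000 sense counts in miRNA genes. Among genes with a mature sequence in the table, those carrying the miR-140-3p or miR-455-5p seed were few. As counted here, nearly all their reads therefore came from Mir140 and Mir455 themselves, although the counts cover both arms of each hairpin.

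Mir140 (ENSMUSG00000065439.1) lies on chromosome 8 from 107551244 to 107551313 (mm10), on the same strand as Wwp2. In the 24-exon transcript Wwp2-201 it sits in intron 16, a stretch of 2141 bases, with 1108 bases to the exon before it and 963 to the exon after. It lies near the end of its host, 114.9 kb into a gene of 122231 bases. The same position falls wholly within the 1 exon of a Wwp2 transcript annotated as a retained intron, which is the only annotated transcript besides Mir140 with a stretch of 18 bases of miR-140-3p. Mir455 (ENSMUSG00000070102.1) lies on chromosome 4 from 63256851 to 63256932, on the same strand as Col27a1, and overlaps no annotated exon of it. It sits in intron 10 of the 61-exon transcript Col27a1-201, 2109 bases after 1 exon and 127 bases before the next. Col27a1 spans 120988 bases, close to the size of Wwp2, but Mir455 lies 35.4% of the way along it, against 94.0% for Mir140.

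**Figure D1:**
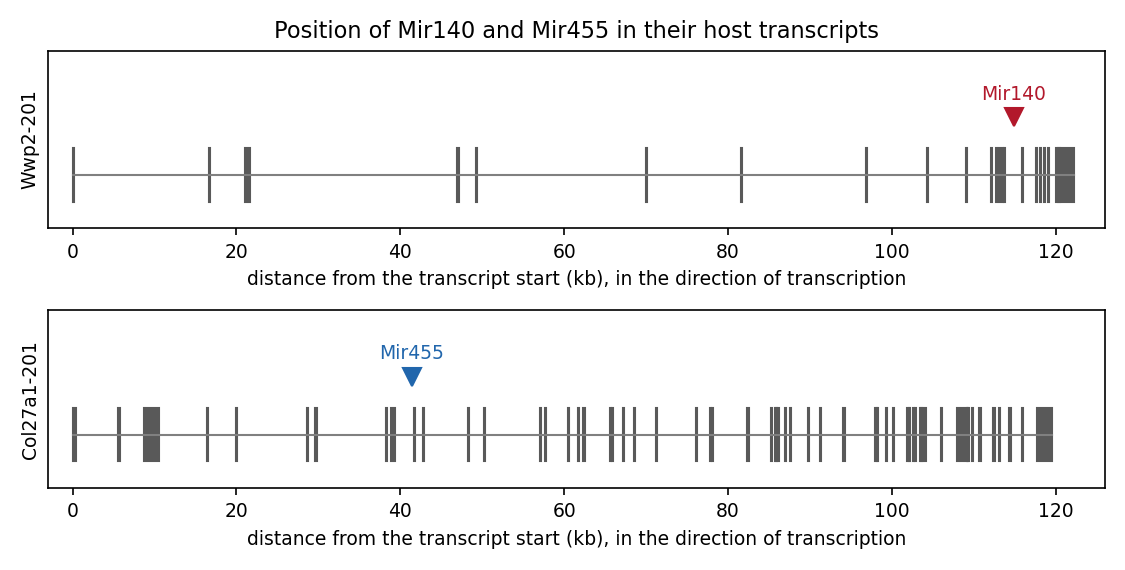
Exons (grey boxes) of the protein-coding transcripts Wwp2-201 and Col27a1-201 along the distance from the transcript start in kb, with a triangle at each miRNA gene. Mir140 lies 114.9 kb and Mir455 41.4 kb from the start of its host transcript, both between exons.

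Neither gene belongs to a cluster. The nearest other counted miRNA gene to Mir140 is Gm23646, 289.6 kb away, with 0 sense counts in each library. The nearest to Mir455 is Mir3095, 4816 kb away on the other strand, with 28 and 27 sense counts in replicates 1 and 2. Each member was therefore the only counted miRNA gene within 10 kb. No annotated miRNA gene shares 18 or more identical hairpin bases with either. Over 141767 annotated transcripts searched on both strands, stretches of 18 bases of the Mir455 arms were found in Mir455 alone. Copies in unannotated sequence were not analysed here.

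Replicate 1 held 5927321 sense counts in miRNA genes out of 12407140 reads, and replicate 2 held 6003632 out of 12657170, so the libraries were of nearly the same depth. Levels are given as CPM on those sense totals. Intervals are exact 95% Poisson or binomial intervals and cover counting error only. Of the 1973 genes, 372 (18.9%) had at least 10 counts in each library, the rule used for detection, and both members were among them.

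Mir140 was read 276790 times in replicate 1 and 279506 times in replicate 2. That is 46697 CPM (interval 46523 to 46872) and 46556 CPM (46384 to 46729). The libraries thus gave nearly the same level, and their intervals overlap. The mean was 46627 ± 99.8 CPM (SD, n = 2), 438-fold above the median of detected genes. Mir140 held 4.67% (interval 4.65% to 4.69%) of sense counts in replicate 1 and 4.66% (4.64% to 4.67%) in replicate 2, about 1 in 21.4 and 1 in 21.5.

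Mir455 was read 11808 and 12300 times, giving 1992 CPM (interval 1956 to 2028) in replicate 1 and 2049 CPM (2013 to 2085) in replicate 2. Replicate 2 was higher by 2.84%, and the intervals overlap. The mean was 2020 ± 40.0 CPM (SD, n = 2), 19.0-fold above the median of detected genes. Mir455 made up 0.199% and 0.205% of sense counts, about 1 in 502.0 and 1 in 488.1. In limb tissue as a whole, a gene read from few cells at a high level and one read from many cells at a low level cannot be told apart.

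The reads were confined almost wholly to the strand of the hairpin. Mir140 had 0 antisense counts in replicate 1 and 2 in replicate 2, and Mir455 had 0 in each. Over all miRNA genes, antisense counts were 3.17% and 3.26% of either-strand counts. Of the 97 genes with a mean of at least 1000 CPM, 78 had no antisense count, so the absence of antisense reads is common at this level.

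The cartilage pair was led by Mir140. In replicate 1 it had 23.4 counts for each Mir455 count (interval 23.0 to 23.9), and in replicate 2 it had 22.7 (22.3 to 23.1). The log2 ratio was 4.55 and 4.51, with a mean of 4.53 ± 0.03 (SD, n = 2). Scaled to hairpin length, as counts per hairpin base, the ratio was 27.0-fold against 23.1-fold unscaled. The arms shown above are 21 or 22 bases long, and whether counts depend on hairpin length was not tested. Mir455 made up 4.09% and 4.22% of the pair's counts. The pair together held 4.87% and 4.86% of all sense counts, 4.86% ± 0.006 (SD, n = 2). The direction was the same in both libraries, but 2 libraries allow no two-sided exact permutation p below 0.5, so the ratio carries no test.

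**Figure D2:**
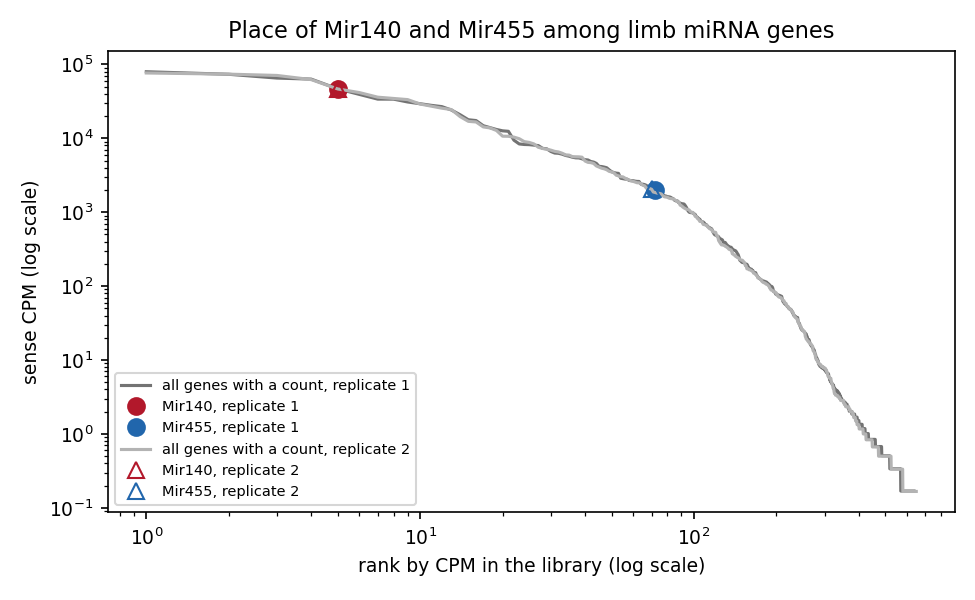
Sense CPM (log scale) against rank (log scale) for all miRNA genes with a count, 1 line per library, with Mir140 and Mir455 marked as filled circles (replicate 1) and open triangles (replicate 2). Mir140 is at rank 5 in each library, and Mir455 at ranks 72 and 70.

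The place of Mir140 in the order was resolved for the counts as assigned. Mir140 had rank 5 in each library, with 4 genes above it and 1968 below it by mean. Multimapping reads, 30.8% of reads in replicate 1 and 29.5% in replicate 2, entered no gene. Genes with copies are thus undercounted, and where they would rank with those reads was not tested. Mir99a, the next above, had 63247 and 62296 CPM, 1.35-fold higher by mean than Mir140. Mirlet7g, the next below, had 39303 and 41557 CPM, or 0.867 times the Mir140 mean. The Mir140 values lay between those of both neighbours with no overlap in either direction. None of the 9 genes closest to it in level (4 above and 5 below) overlapped it in range.

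The place of Mir455 was not resolved. It ranked 72nd in replicate 1 and 70th in replicate 2, in a stretch where many genes have like levels. Mir182, the next above by mean, had 2209 and 1878 CPM, on either side of the Mir455 values. Mir199b, the next below, had 2400 and 1590 CPM and also lay on both sides, and it shares 22 or more bases with another miRNA gene, so its level is uncertain. Of the 10 genes closest in level, Mir183, Mir182, Mir199b, Mir503 and Mir298 overlapped the range of Mir455. Mir541, Mir484, Mir22, Mir101b and Mirlet7b did not. Mir22, at 2107 and 2103 CPM, lay just above Mir455 in each library without overlap. Mir101b, at 1792 and 1824 CPM, lay just below it in each.

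**Figure D3:**
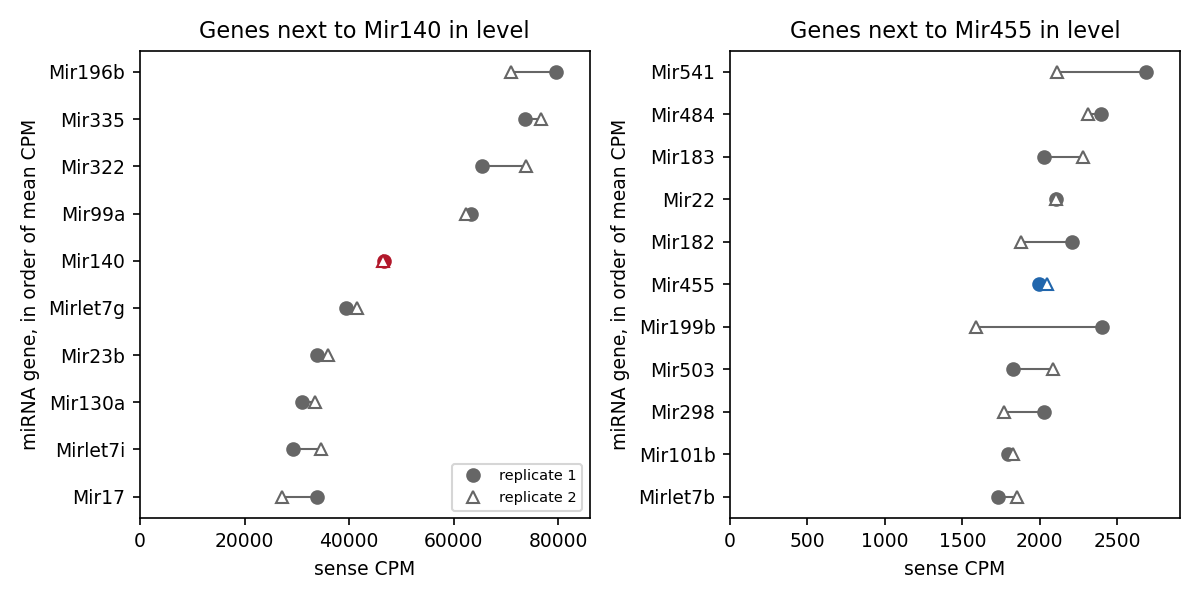
Sense CPM of the genes next to Mir140 (left) and Mir455 (right) in order of mean CPM, with a filled circle for replicate 1 and an open triangle for replicate 2 joined by a line. Mir140 at 46697 and 46556 CPM stands clear of every gene shown beside it, while the range of Mir455, 1992 to 2049 CPM, overlaps those of Mir183, Mir182, Mir199b, Mir503 and Mir298.

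The genes also ranked differently on their own chromosomes. On chromosome 8 Mir140 was the most abundant of 93 counted miRNA genes and held 63.1% of their counts (ratio of mean CPM). Mir23a followed, at 14807 and 16965 CPM. On chromosome 4 Mir455 had rank 4 of 106 genes and held 7.83% of their counts, behind Mir30e at 17384 and 13820 CPM, Mir429 at 3378 and 4082 CPM and Mir872 at 2364 and 2554 CPM. Of the 1973 genes, 854 lie within a protein-coding gene on the same strand. Among those, Mir140 had rank 3, behind Mir196b and Mir335, and Mir455 had rank 35. Of the hosted genes, 175 of 854 were detected (20.5%), against 197 of 1040 (18.9%) of the matched genes with no such host, and 18.9% of all genes.

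Between the libraries neither member was called. The call needed an adjusted p under 0.05 (two-sided exact binomial test of the 2 libraries, Benjamini-Hochberg adjusted over 410 genes) and an absolute log2 ratio of at least 1, and 14 of 410 genes (3.41%) met it. This test compares these libraries, not conditions, and covers counting error only. Mir140 had a log2 ratio of replicate 2 over replicate 1 of -0.004 (adjusted p = 0.414, exact binomial test). With edgeR TMM sizes that ratio turned to 0.012 (adjusted p = 0.00485, exact binomial test) and with DESeq2 size factors to 0.014 (adjusted p = 0.000955), so its direction depended on the scaling. Per all reads it was -0.015 (adjusted p = 0.000519, exact binomial test). Mir455 had a log2 ratio of 0.04 (adjusted p = 0.0668, exact binomial test), and 0.06 both with TMM sizes (adjusted p = 0.00627, exact binomial test) and with DESeq2 size factors (adjusted p = 0.00465). Without the minimum ratio 179 of 410 genes (43.7%) passed the adjusted p, and neither Mir140 nor Mir455 did on the scale of total sense counts. With only the 268 genes of at least 100 counts in 1 library tested on that scale, Mir455 did (adjusted p = 0.0493, exact binomial test). Both did with TMM sizes and with DESeq2 size factors, and Mir140 alone did per all reads, each far below the minimum ratio.

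The spread of the pair can be set beside that of the abundant genes, which cover a wide range of level. Of the 97 genes with a mean of at least 1000 CPM, 88 passed the adjusted p without a minimum ratio, and Mir140 and Mir455 were among the 9 that did not on this scale. Mir140 had a coefficient of variation of 0.214% between libraries, and 3 of the 97 genes had a lower one. Mir455 had 1.98%, and 11 genes had a lower one. With TMM sizes, 4 and 18 of these genes had a smaller log2 ratio than Mir140 and Mir455. The median over the 97 was 5.61%, with a highest value of 35.2%. The SD of Mir140 between libraries, 99.8 CPM, was 1.13 times the SD that counting error alone gives, 88.4 CPM. For Mir455, 40.0 CPM was 2.18 times its counting SD of 18.4 CPM, and the median of the 97 genes was 10.1 times. These ratios depended on the scaling. With TMM sizes they were 3.15 for Mir140, 3.07 for Mir455 and 9.47 for the median, with DESeq2 size factors 3.64, 3.17 and 9.57, and per all reads 3.799, 1.62 and 10.2. These are descriptions of 2 libraries, and other samples of limb may spread more.

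**Figure D4:**
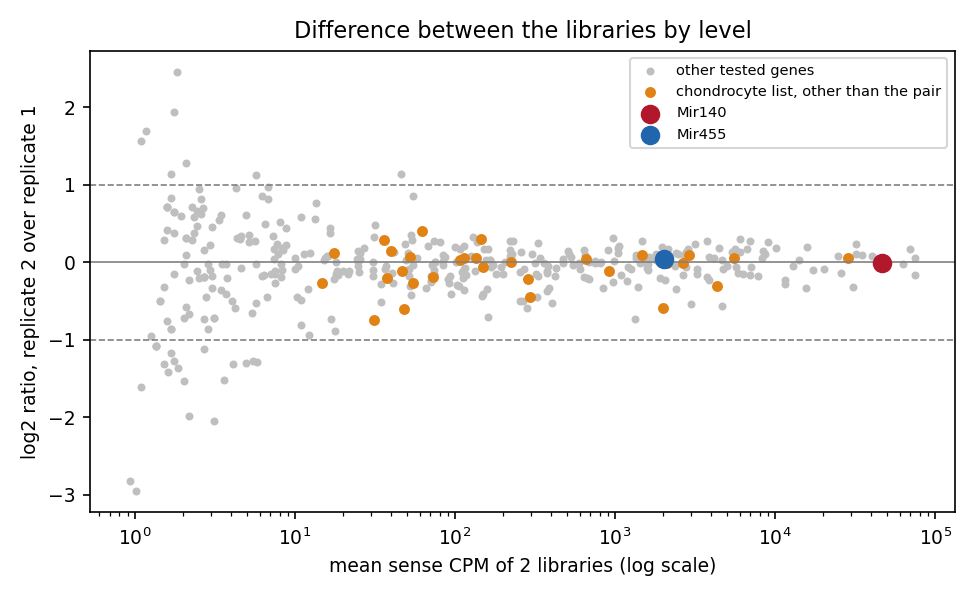
Log2 ratio of replicate 2 over replicate 1 against mean sense CPM (log scale) for the 410 genes tested, with Mir140, Mir455 and the other genes of the chondrocyte list in colour, and dashed lines at the minimum log2 ratio of 1 in each direction. Mir140 (-0.004) and Mir455 (0.04) lie near the zero line, in a range of level where no gene passes the dashed lines.

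Within a list of miRNA genes named in work on chondrocytes, Mir140 was the highest and Mir455 stood in the upper part. The list held 37 symbols, all counted, Mir18a and Mir146a under the older symbols Mir18 and Mir146. Of the 37, 32 were detected (86.5%), against 18.9% of all genes. The median of the 37 was 113.6 CPM, and over all 1973 genes it was 0 CPM. No listed gene was above Mir140, and besides Mir140 the 6 genes Mir214, Mir18a, Mir30a, Mir27b, Mir181a-1 and Mir22 were above Mir455. The other 35 genes together held 5.30% of counts, beside 4.86% for the pair. Of the 37, 14 share 22 or more hairpin bases with another gene, so their levels are uncertain, while neither member does. The list was compiled with earlier results of these data known. The 4 genes above Mir140 by mean CPM, Mir196b, Mir335, Mir322 and Mir99a, are not on it. The lead of Mir140 and the share detected therefore depend on which genes were listed, and are descriptions only.

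Mir214, a mesenchymal miRNA gene also known for limiting bone formation, was next to Mir140 in the list at 27909 and 29093 CPM. Mir140 exceeded it in each library, by a mean log2 ratio of 0.71 ± 0.05 (SD, n = 2), or 1.64-fold. Mir18a, from the cluster that also holds Mir17, followed at 5444 and 5641 CPM, 8.41-fold below Mir140. Mir30a came next at 4766 and 3866 CPM, and Mir27b, known for targeting the collagenase Mmp13 in chondrocytes, at 2809 and 3008 CPM. Mir181a-1, at 2667 and 2651 CPM, shares long stretches with another copy and is uncertain. Below Mir455 and Mir199b came Mir337, at 1422 and 1516 CPM. Mir675, made from the imprinted H19 transcript and described as acting on Col2a1 in chondrocytes, had 152.5 and 146.2 CPM. Mir145a, known for targeting Sox9, had 107.1 and 109.1 CPM, 18.7-fold below Mir455.

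Of the 32 listed genes tested between libraries, 14 passed the adjusted p without a minimum ratio, 6 higher and 8 lower in replicate 2, and neither member was among them. That share is close to the 43.7% over all genes. None was called with the minimum ratio. The median log2 ratio of the 32 was 0.0023, against -0.018 over all 410 genes tested.

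**Figure D5:**
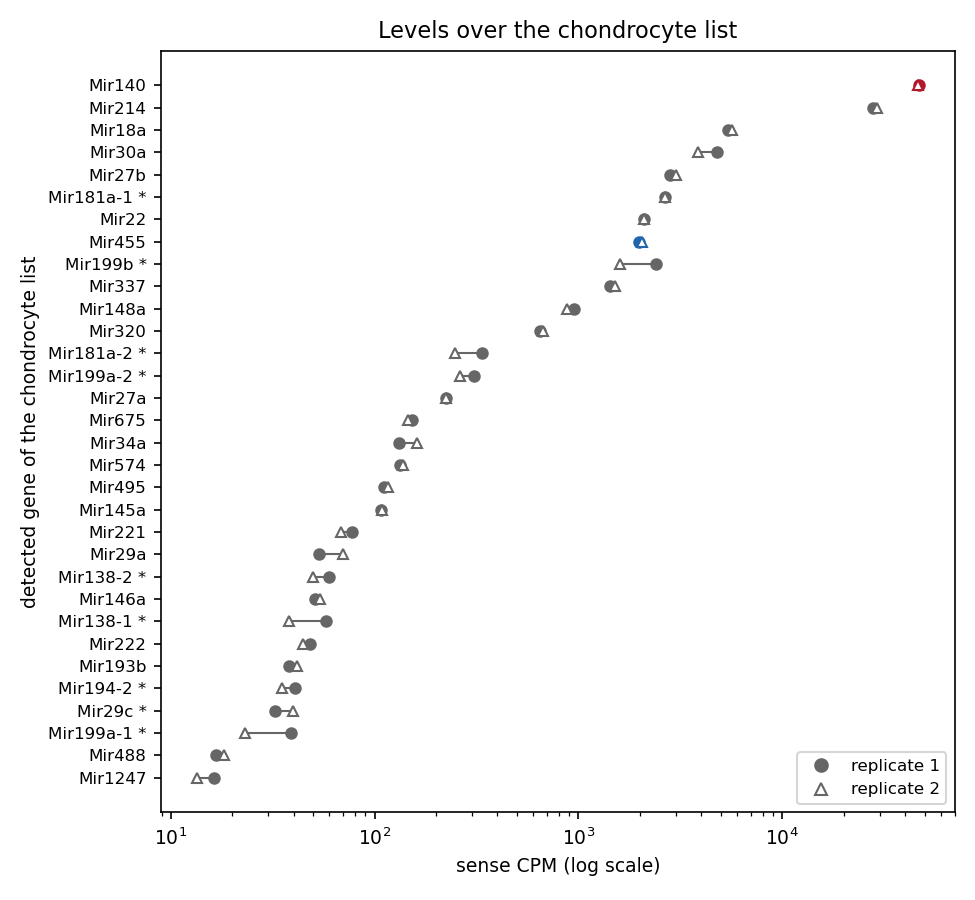
Sense CPM (log scale) of the 32 detected genes of the chondrocyte list, ordered by mean, with a filled circle for replicate 1 and an open triangle for replicate 2. An asterisk marks genes that share 22 or more hairpin bases with another miRNA gene. Mir140 leads the list, and Mir455 follows Mir22.

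Limb holds other tissues, and markers of each were read beside the pair. Mir140 was above every counted marker gene of skeletal muscle, epithelium, endothelium, smooth muscle, blood and neurons. The closest of these was the endothelial gene Mir126a, at 20830 and 19637 CPM, which Mir140 exceeded 2.31-fold, a mean log2 ratio of 1.21 ± 0.06 (SD, n = 2). Mir140 was 12.1-fold above Mir206 of skeletal muscle, 5.57-fold above Mir203 and 6.77-fold above Mir205 of epithelium, and 6.95-fold above Mir143 of smooth muscle. The second gene of muscle, Mir133b, had 75.2 and 75.3 CPM, and Mir128-1 of neurons had 170.7 and 164.1 CPM. Mir128-1 shares 22 or more bases with another gene, so its level is uncertain. Over the blood genes Mir223, Mir451a and Mir144 it was 147-fold, 624-fold and 916-fold higher. The neuronal genes Mir124a-1, Mir124a-2 and Mir124a-3 were at 0 counts in each library, but each shares 22 or more bases with another gene, and multimapping reads are assigned to none.

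Mir455 took a middle place among the same markers. It was below Mir206, with a log2 ratio of -0.91 in replicate 1 and -0.94 in replicate 2, and below Mir203, Mir205, Mir143 and Mir126a in each library. It was above Mir200b, by log2 ratios of 1.20 and 0.93, and above the blood genes, 6.35-fold for Mir223, 27.0-fold for Mir451a and 39.7-fold for Mir144. In Ttll10, the gene that also holds Mir200b, Mir429 was above Mir455 at 3378 and 4082 CPM. Mir200a in the same gene was below Mir455 at 197.4 and 189.7 CPM.

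Several markers of other tissues had larger log2 ratios toward replicate 2 than either member of the cartilage pair. Among them were the 3 epithelial markers, Mir143 of smooth muscle, Mir206 of skeletal muscle and Mir144 of blood. Mir203, Mir205 and Mir200b were all higher in replicate 2, with log2 ratios of 0.14, 0.27 and 0.31. The log2 ratio of Mir140 over Mir205 was thus 2.90 in replicate 1 and 2.62 in replicate 2. Of the genes beside Mir200b in Ttll10, Mir429 had a log2 ratio of 0.27 and Mir200a one of -0.06. The smooth muscle genes Mir143 and Mir145a had log2 ratios of 0.17 and 0.03. The skeletal muscle gene Mir206 had a log2 ratio of 0.07 and the endothelial gene Mir126a one of -0.09. The blood genes Mir144, Mir223 and Mir451a had log2 ratios of 0.12, -0.01 and 0.0009. None of these blood genes passed the adjusted p on total sense counts (Mir144: adjusted p = 0.448, exact binomial test). Mir145a and Mir200a did not pass it either. The log2 ratio of Mir140 over Mir223 was 7.19 and 7.20. Whether differences in tissue makeup between the samples have a part in any of these log2 ratios was not tested.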

How the data were processed

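MicroRNA sequencing was done on total RNA of the short size range in the labels, from 2 limb samples of 1 group. The authors deposited whole-number read counts per miRNA gene, on mm10 with annotation M4 per the text deposited beside them; aligner and counter: not given in the sources used here. No header names the 3 count columns; they were read as either strand, sense and antisense because in all 1973 genes the first is the sum of the others. Lines naming no gene stayed out of all totals: unmapped reads were 17.2% and 18.6% of reads, multimapping reads 30.8% and 29.5%, and reads in no gene 4.24% and 4.48%. Multimapping reads enter no gene, so genes with copies are undercounted. Replicate numbers are the biological replicate numbers of the labels, and the p-values cover counting error only.

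Symbols and coordinates came from GENCODE M21 (GRCm38, the build of mm10), where 1894 of 1973 identifiers matched without version, and sequences from RefSeq tables of GRCm38.p6. Both members matched in the count tables, and Mir18a and Mir146a of the chondrocyte list were matched as Mir18 and Mir146 through RefSeq synonyms at the same coordinates.

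Computed here were CPM, exact intervals, exact binomial tests over genes with at least 10 counts in 1 library (0.5 counts added for log2 ratios), and TMM and DESeq2 factors (edgeR 4.0.16, DESeq2 1.42.0, scipy 1.17.1). The binomial script was tested on simulated data. Named genes were the members, the 5 nearest in level on each side, seed sharers, the nearest miRNA gene, up to 6 detected list genes of highest mean, and the markers; Mir675, Mir337, Mir145a and the leaders of chromosomes and hosted genes were added after their values were seen. Members and lists were chosen with earlier results of these data known. Alternatives were other denominators, either-strand counts, other size factors and count filters, no minimum ratio, each library alone and, added later, counts per hairpin base.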

Additional observations from a re-analysis of the deposited data

How the results depend on the processing

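Per all reads of a library, Mir140 was at 22196 CPM, Mir455 at 961.7 CPM and the pair at 2.32% of reads. With either-strand counts these were 45127 CPM, 1955 CPM and 4.71%, and with genes sharing 22 or more bases left out of the total 47903 CPM, 2076 CPM and 4.998%. These shifts follow from the denominators. The log2 ratio of Mir140 over Mir455 stayed near 4.53 with either-strand or summed counts and was 4.76 per hairpin base, a scale chosen after seeing the data that follows from the lengths of 70 and 82 bases. The log2 ratio of Mir140 between libraries turned from -0.004 to 0.012 with TMM sizes and to 0.014 with DESeq2 size factors, and was -0.015 per all reads; the cause was not tested. Mir455 stayed higher in replicate 2 under all 4 alternatives, between 0.03 and 0.06. Called genes numbered 1 with at least 100 counts in 1 library (268 genes tested) and 179 without the minimum ratio, against 14; among the 268, Mir455 had an adjusted p of 0.0493 (exact binomial test). With 2 libraries, each one alone lies a fixed part of the SD from the mean, so leaving 1 out says nothing about stability. No paired analysis was possible because there is 1 group. Depth did not limit the members, whose counts are 11808 or more in each library; it limits the seed sharers at 0 to 2 counts.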
